A study of Homo sapiens with 8 samples.

Results

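The comparison described here set Saos-2 cells exposed to a compound for 6 h against untreated Saos-2 cells. It used 6 of the 8 arrays of the series, 3 untreated and 3 at 6 h, chosen by their labels, with each treated array paired to the untreated array of the same replicate number. Saos-2 cells are an established line from a human bone tumour, an osteosarcoma, and the labels give every array, untreated ones included, as p53 null. The labels call the compound Prima and give neither dose, vehicle nor structure, and they do not say whether replicates were separate cultures, so a p-value here covers array-to-array spread that could be purely technical. The other 2 arrays, treated for 12 h, are in neither group; they entered the mean signal by which genes were kept for testing and 1 alternative fit, and their signals stand beside those of some genes. The study asked how the whole transcriptome of cells without p53 responded to the compound.

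Cells without p53 cannot raise the p53 programme of cell cycle inhibitors and death genes through p53 itself, although other factors can drive several of those genes. Thiol-reactive or oxidising agents release the transcription factor NRF2 from KEAP1, and NRF2 then drives genes for glutathione, thioredoxin and haem breakdown from antioxidant response elements. Unfolded protein and amino acid stress act through ATF4 and raise DDIT3, TRIB3 and ASNS, and protein damage in the cytosol acts through heat shock factor on chaperone genes. Such responses are usually read from messenger RNA within hours, and the lists of genes described here were drawn up around them.

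At 6 h no gene was told apart from untreated cells by the test. Of 12063 genes bright enough to test, 0 were higher and 0 were lower (0% in each direction) with limma at a Benjamini-Hochberg adjusted p under 0.05, and the smallest adjusted p was 0.970. At an unadjusted p under 0.05 there were 172 higher genes (1.43%) and 129 lower genes (1.07%), together 2.5% of all genes tested. The median difference over all genes was 0.02 on the log2 scale, and 53% of genes had a mean difference above 0. The median standard error of a gene's difference was 0.28 with 3 pairs, and even the gene with the smallest p, EMP1, at 1.35 ± 0.25 (SE), did not pass. Values below are MAS5 signals, the deposited intensity of 1 probe set per gene with each array scaled to 1 common trimmed mean, and differences are log2 of 6 h over untreated, after dim signals were raised to a floor of 2.39.

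Some markers of the labelled cell type were bright on all 6 arrays and others were dim. Of 10 osteoblast lineage markers, 8 had a probe set and all 8 passed the filter on dim genes, which is on mean signal. The brightest were the collagen gene COL1A1, the transcription factor RUNX2 and the matrix protein gene SPARC. Among the dimmer ones, COL1A2 stood at 26.9 to 82.1 and PTH1R at 14.7 to 47.1 over the 6 arrays. The summed signal of the 8, mostly from the brightest, was 6746 to 8374 on untreated arrays and 6211 to 9137 at 6 h. The defining markers of muscle were all under the filter, and 1 of 5 leukocyte, 1 of 4 endothelial and 1 of 3 liver markers passed it, with summed signals up to 277. Epithelial markers summed to 538 to 977 on untreated arrays and 681 to 2295 at 6 h, the top value coming from the keratin KRT18, at 2064 on 6 h replicate 1 against 619 on its untreated pair. In such bulk RNA, a different number of cells of a kind and a different amount of RNA per cell cannot be told apart. The replicate 2 arrays stood apart, with median signals of 50.9 (untreated) and 47.5 (6 h) against 15.5 to 24.95 on the other 4 arrays.

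The 3 pairs did not share a pattern of differences. Across genes, which are not independent replicates, the differences of pair 1 and pair 2 had a Pearson's r of -0.025, those of pairs 1 and 3 an r of 0.009 and those of pairs 2 and 3 an r of -0.038. A gene had the same sign in pairs 1 and 2 in 49.4% of cases, in pairs 1 and 3 in 51.4% and in pairs 2 and 3 in 47.3%. Among the 1207 brightest genes, 10% of those tested, r was -0.053, -0.009 and -0.23 in the same order. The pairs also differed in spread. At least 2-fold differences were found in 15.9% of genes in pair 1 and 15.2% in pair 2 but in 3.75% in pair 3, whose 2 arrays correlated at 0.980 across genes against 0.905 and 0.894 in the other pairs.

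**Figure D1:**
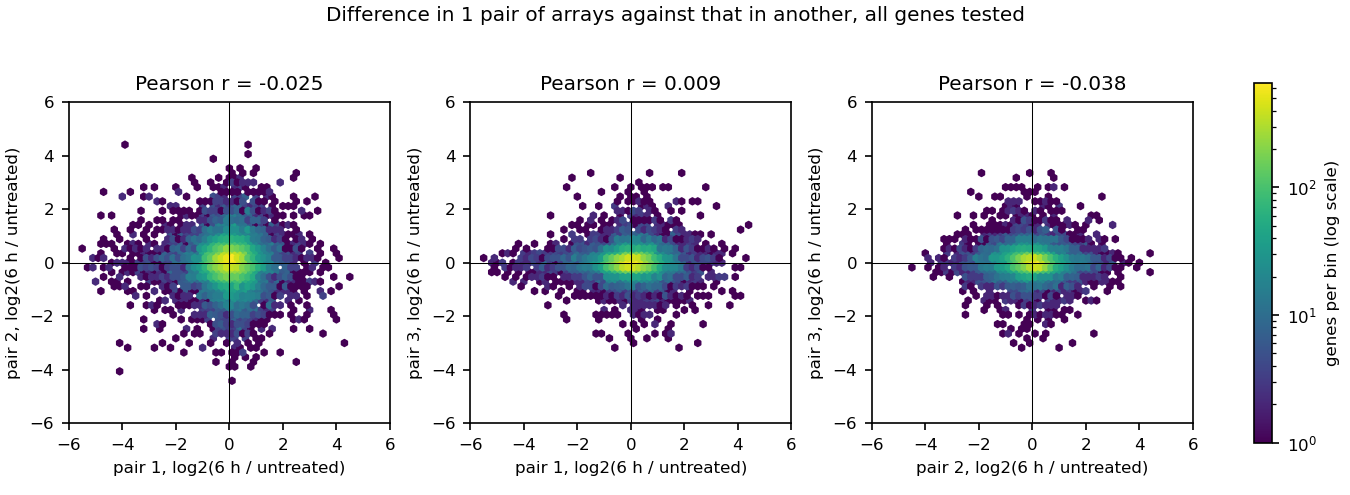
Log2 difference of 6 h over untreated in 1 pair of arrays (horizontal axis) against that in another (vertical axis), for 12063 genes, with colour giving the number of genes in each bin on a log scale. The clouds are centred on 0 with no slope (r of -0.025, 0.009 and -0.038), and the cloud of pair 3 is narrower than those of pairs 1 and 2.

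Differences in the same direction in all 3 pairs were found in 1643 genes on the higher side (13.6%) and 1253 on the lower side (10.4%). A difference of at least 1.5-fold in every pair was found in 48 higher genes (0.398%) and 41 lower genes (0.34%). Most of these were dim. Their median signal was 36.3 for the higher and 34.8 for the lower genes, against 143 over all genes tested, and 2 of the 48 and 0 of the 41 had a mean signal over 100. At low signal the pairs scattered most: the SD of the pair 1 differences was 1.38 in the dimmest 10% of genes and 0.44 in the brightest 10%. The untreated and 6 h arrays did not overlap in 13 of the 48 and 15 of the 41, and over all genes they did not overlap in 3.54% (2.03% higher and 1.51% lower at 6 h). Because the 48 and 41 genes were chosen by their differences on these same arrays, a larger share among them follows from the choice.

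RNF25, which carries a RING domain and tags proteins with ubiquitin, had signals of 25.1, 20.98 and 18.7 on untreated replicates 1, 2 and 3 and of 85.8, 79.1 and 49.3 at 6 h. Every 6 h array lay above every untreated array, and the difference was 1.70 ± 0.41 (SE, n = 3 pairs). The 12 h arrays stood at 11.3 and 25.3. LENG9 led the genes by its weakest pair, with 9.52, 17.8 and 3.92 in untreated cells and 54.7, 86.5 and 13.2 at 6 h, and its groups overlapped. NEMP2, a nuclear envelope membrane protein, went from 13.5, 14.6 and 6.58 to 38.6, 61.2 and 20.1, without overlap.

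ICAM1, a cell surface adhesion receptor for leukocyte integrins and a known NF-kappaB target, stood at 17.7, 20.8 and 4.76 untreated and 43.5, 47.5 and 32.5 at 6 h. The groups did not overlap, but 2 other ICAM1 probe sets, both under the filter, had mean differences of -0.69 and -1.59. CTSS, a lysosomal cysteine protease, stood at 16.7, 34.9 and 8.61 against 60.6, 113 and 20.4, and of its 2 dimmer probe sets 1 was lower in all 3 pairs. The other 5 of the 10 genes with the largest weakest-pair difference were FAM167A, the mitochondrial transhydrogenase gene ADHFE1, the cytochrome P450 gene CYP4B1, the nudix hydrolase gene NUDT10 and MEGF11, a membrane protein with EGF-like repeats. Their mean differences were 1.28 to 1.66 with SEs of 0.49 to 0.63, their untreated signals were 5.52 to 40.3, and in all 5 the groups overlapped because the replicate 2 arrays were higher than the others in both conditions. Their other probe sets, all under the filter, had mean differences of -1.20 for CYP4B1, -0.71 for FAM167A, 0.13 for NUDT10 and 0.23 and 0.64 for MEGF11.

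On the lower side DELE1, which relays mitochondrial stress to the integrated stress response, had signals of 94.5, 110 and 79.9 untreated and 48.1, 32.4 and 42.5 at 6 h. All 6 h arrays lay below all untreated arrays, with a difference of -1.22 ± 0.34 (SE, n = 3 pairs). Of 2 other DELE1 probe sets above the filter, neither was lower in all pairs, with mean differences of 0.49 and -1.01. S1PR1, a receptor for sphingosine 1-phosphate, stood at 54.1, 33.7 and 35.9 untreated and 10.5, 13.1 and 13.7 at 6 h, again without overlap, and at 49.7 and 29.98 at 12 h. HTR7, a serotonin receptor, went from 40.2, 44.9 and 36.2 to 12.4, 16.5 and 18.8, and RAB3IL1, an exchange factor for RAB GTPases, from 67.1, 72.3 and 56.0 to 34.6, 22.2 and 23.1.

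These receptors and the exchange factor were low in untreated cells and nearer the background at 6 h. SH3TC1, LOC389199 and CYSRT1 also had groups that did not overlap, with differences of -1.84, -1.34 and -1.52, but the second SH3TC1 probe set had a mean difference of 1.47. LOC286359, the zinc finger gene SALL2 and the polarity scaffold gene LIN7A differed by -2.37, -1.47 and -1.19 with overlapping groups. Of 3 other LIN7A probe sets, all under the filter, 1 was lower in all 3 pairs, while another differed by 1.82, 0.60 and 2.18. Just outside these 20 genes lay EMP1, with a weakest pair of 1.00 against 1.04 for MEGF11, and TBX5, with -0.84 against -0.88 for LIN7A. None of the 20 passed the test.

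**Figure D2:**
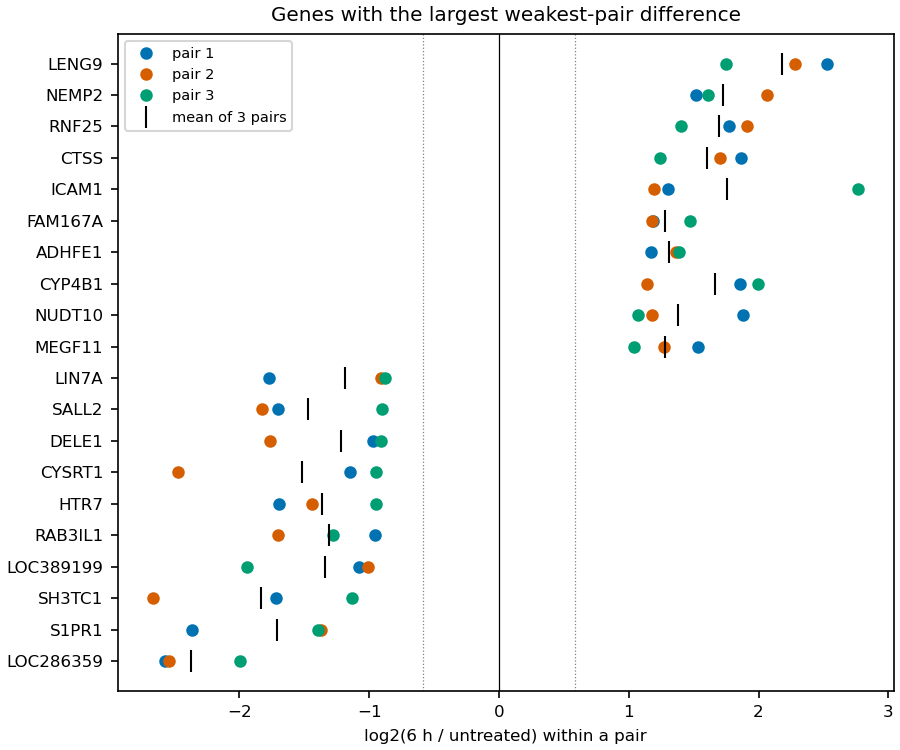
Log2 difference of 6 h over untreated in each of the 3 pairs (coloured points) and their mean (black bar) for the 10 genes with the highest and the 10 with the lowest weakest-pair difference; dotted lines mark 1.5-fold. The points of a gene all lie on 1 side of 0 by the way the genes were chosen, and the weakest pair is at 1.04 or more for the higher and at -0.88 or less for the lower genes.

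Among brighter genes, EMP1, a small epithelial membrane protein, had the smallest p of all genes tested. It was chosen here after the values were seen, as were NHERF1, DDAH1, RGCC, UHRF1, ITGB8 and TXNIP. The other genes of this and the next paragraphs that stand in no list were chosen so too. UHRF1 is also counted in the list of G1/S and replication genes and TXNIP in that of thioredoxin and peroxiredoxin genes. EMP1 signals were 224, 99.8 and 126 on untreated replicates 1, 2 and 3 and 874, 213 and 253 at 6 h. Its 6 h arrays were higher in each pair, by 1.96, 1.10 and 1.00, while the groups overlapped because untreated replicate 1 exceeded 6 h replicate 2. The mean difference was 1.35 ± 0.25 (SE, n = 3 pairs), with a limma p of 0.00075 and an adjusted p of 0.970. A second EMP1 probe set differed by 1.76, 3.62 and 1.31 and another, also above the filter, by -0.47, -0.95 and 0.93. At 12 h the signals were 291 and 152.

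The 250 bases before the EMP1 start site held 2 matches to TGANTCA, a loose form of the AP-1 site with any base at its centre. AP-1 sites are bound by FOS and JUN dimers. The matches, TGAGTCA and TGATTCA, begin 175 and 48 bases before the start. They are shown because EMP1 had the smallest p. The sequence is from RefSeq on GRCh38.p14, chr12:13196476-13196725, plus strand, with the sites in capitals.
EMP1: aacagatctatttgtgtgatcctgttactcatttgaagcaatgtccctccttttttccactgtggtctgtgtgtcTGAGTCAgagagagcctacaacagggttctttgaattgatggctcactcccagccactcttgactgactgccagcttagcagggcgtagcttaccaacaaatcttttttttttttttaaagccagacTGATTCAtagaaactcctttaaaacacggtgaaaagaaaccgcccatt

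This loose pattern reads the same on both strands, apart from its central base. It was found in 7.33% of the 300-base windows (250 before to 50 after the start) of the 9890 tested genes that had one. Among the 48 genes higher by 1.5-fold in all pairs, 4 of 35 windows held it (11.4%), and among the 41 lower genes 4 of 34 (11.8%). A match describes the letters only.

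NHERF1, a scaffold that ties membrane proteins to the actin cortex, had signals of 189, 80.8 and 151 untreated and 357, 161 and 255 at 6 h. It was higher in each pair, by 0.92, 0.99 and 0.75, and the groups overlapped through the low replicate 2 arrays. DDAH1, which breaks down the nitric oxide synthase inhibitor dimethylarginine, was far brighter, at 3259, 2644 and 2684 untreated and 4090, 3710 and 3459 at 6 h. All its 6 h arrays lay above the untreated ones (0.39 ± 0.09, SE, n = 3 pairs), but of 3 other DDAH1 probe sets above the filter 1 was also higher in all pairs and 1 had a mean difference of -0.55.

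RGCC, a regulator of cell cycle kinases, was among the most even of the lower genes. Its signals were 720, 653 and 1278.5 untreated and 457, 424 and 870 at 6 h, a difference of -0.66, -0.62 and -0.56 in the 3 pairs, and a second tested probe set was lower too (-0.21, -0.82 and -0.51). The groups overlapped only because replicate 3 was brighter in both conditions, and the mean difference was -0.61 ± 0.15 (SE, n = 3 pairs). UHRF1, which maintains DNA methylation in S phase, stood at 1214, 1384 and 1068 untreated and 714, 763 and 936 at 6 h, without overlap. ITGB8, an integrin chain, stood at 122, 169 and 179 against 32.2, 79.6 and 122, also with all 6 h arrays below the untreated ones, although 6 h replicate 3 lay only just under untreated replicate 1.

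Genes read by several probe sets gave a further view. Of 5965 genes with at least 2 probe sets above the filter, 97 had every set higher in all 3 pairs and 66 had every set lower, and 0 had every set at least 1.5-fold away in every pair in either direction. TXNIP, an inhibitor of thioredoxin and of glucose uptake, was lower by all 3 of its probe sets. Its brightest set gave 538, 644 and 976 untreated and 378, 521 and 829 at 6 h, a difference of -0.35 ± 0.16 (SE, n = 3 pairs), and the other sets had mean differences of -0.79 and -0.40. DNAJC12, a co-chaperone, was lower by all 3 sets (means of -1.64, -1.35 and -1.03), and CPEB1, a regulator of cytoplasmic polyadenylation, by both (-1.07 and -0.54). On the higher side stood the ubiquitin ligase RNF10 (0.37 and 0.89) and the cytochrome P450 CYP2U1 (0.48 and 1.03 by its 2 sets above the filter), and the tight junction gene CLDN15 was higher by both sets (1.53 and 1.09). Among the 48 genes higher by 1.5-fold in all pairs, 6 had another probe set above the filter and 1, EMP1, had one that was higher in all pairs, and among the 41 lower genes 6 had another and 0 had one that was lower in all pairs.

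**Figure D3:**
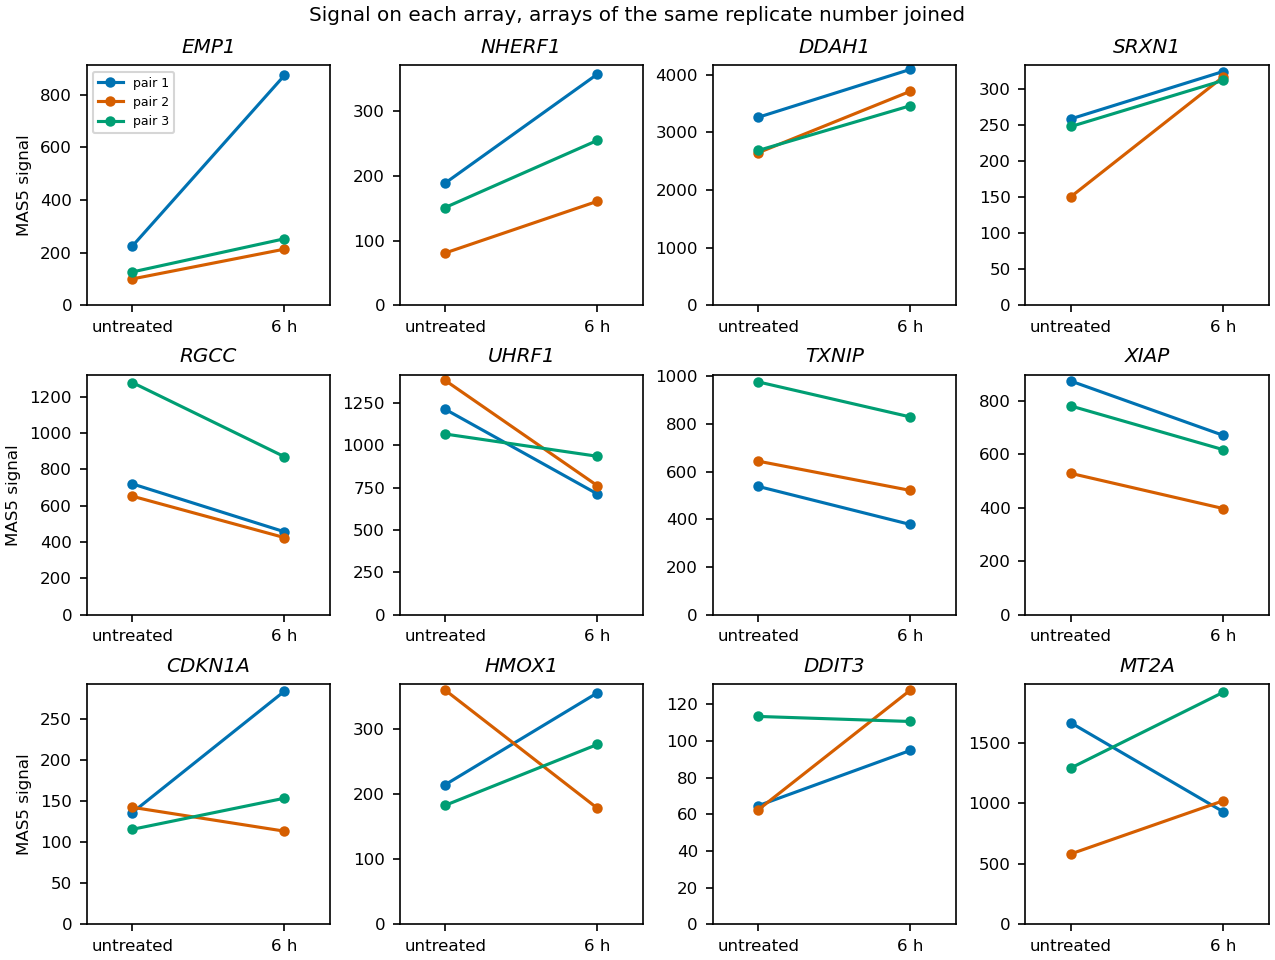
MAS5 signal on each of the 6 arrays for 12 genes, with the untreated and 6 h arrays of each replicate number joined by a line (linear axis from 0). In the top row (EMP1, NHERF1, DDAH1, SRXN1) all 3 lines go up and in the middle row (RGCC, UHRF1, TXNIP, XIAP) all 3 go down, while in the bottom row (CDKN1A, HMOX1, DDIT3, MT2A) the pairs go opposite ways.

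Of 34 gene lists, none had a gene that passed the test, and the plot of list medians shows how far the pairs disagreed. Every list count below is to be read beside the share over all genes tested, 13.6% higher and 10.4% lower in all 3 pairs. The share within a list is printed for some lists only. Of 123 genes taken from the lists as examples, each with 1 sign in all pairs by its brightest probe set, 67 had another probe set above the filter, and in 28 of the 67 at least 1 such set went the same way in all pairs. Genes of the NRF2 list were on balance slightly higher. Of 30 listed genes 23 were tested, 18 of the 23 had a mean difference above 0, 7 were higher in all 3 pairs (30.4% against 13.6% of all genes) and 0 were lower in all 3 (against 10.4%), with a median difference of 0.13 against 0.02 over all genes. The pair medians were 0.26, 0.04 and 0.14, and the list median stayed above 0 under every alternative run. SRXN1, sulfiredoxin, which repairs overoxidised peroxiredoxins, stood at 259, 151 and 248 untreated and 324, 317 and 312 at 6 h, all 3 above the untreated arrays (0.58 ± 0.23, SE, n = 3 pairs), and at 325 and 365 at 12 h. NQO1, a quinone reductase, stood at 580, 336 and 559 against 980, 346 and 582 and was higher in all pairs by all 3 of its probe sets, though its brightest set differed by only 0.04 and 0.06 in pairs 2 and 3.

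Other NRF2 targets were divided. HMOX1, haem oxygenase, stood at 214, 360 and 183 untreated and 355.5, 178 and 276 at 6 h, higher in pairs 1 and 3 and lower by 1.01 on the log2 scale in pair 2. The cystine carrier SLC7A11 differed by 0.47, -0.51 and -0.05, and GCLC, the catalytic subunit of glutamate-cysteine ligase, by -1.51, 0.23 and 0.25. Higher in all 3 pairs, by amounts near their standard errors, were its regulatory partner GCLM at 0.06, 0.26 and 0.02 (0.11 ± 0.11, SE) and the thioredoxin reductase TXNRD1 at 0.29, 0.02 and 0.18 (0.16 ± 0.13). MAFG, a small Maf partner of NRF2, was also higher in all pairs, with a larger mean (0.69 ± 0.32, SE), most of it from pair 1 at 1.40, and its other tested probe set was not.

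The antioxidant response element core, TGACNNNGC on either strand, was found in 7 of the 18 NRF2-list genes with a promoter window (38.9%), against 19.7% of all tested genes with one and 14 of 35 genes (40%) of the ATF4 list. Among the list's genes that were higher in all 3 pairs it was in 2 of 6, GCLM and TXNRD1, of whose cores 1 per start is shown in capitals within 30 bases (RefSeq, GRCh38.p14). The GCLM stretch lies at chr1:93909445-93909474 on the minus strand. TXNRD1 has a window at each of 2 starts, and the stretches lie at chr12:104215670-104215699 and chr12:104286920-104286949 on the plus strand; a further core of TXNRD1, which begins 8 bases before the first start, is not shown.
GCLM: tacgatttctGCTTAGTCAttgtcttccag
TXNRD1, first start: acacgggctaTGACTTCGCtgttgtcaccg
TXNRD1, second start: gtggatttctGCTTTGTCAttctgactctg

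**Figure D4:**
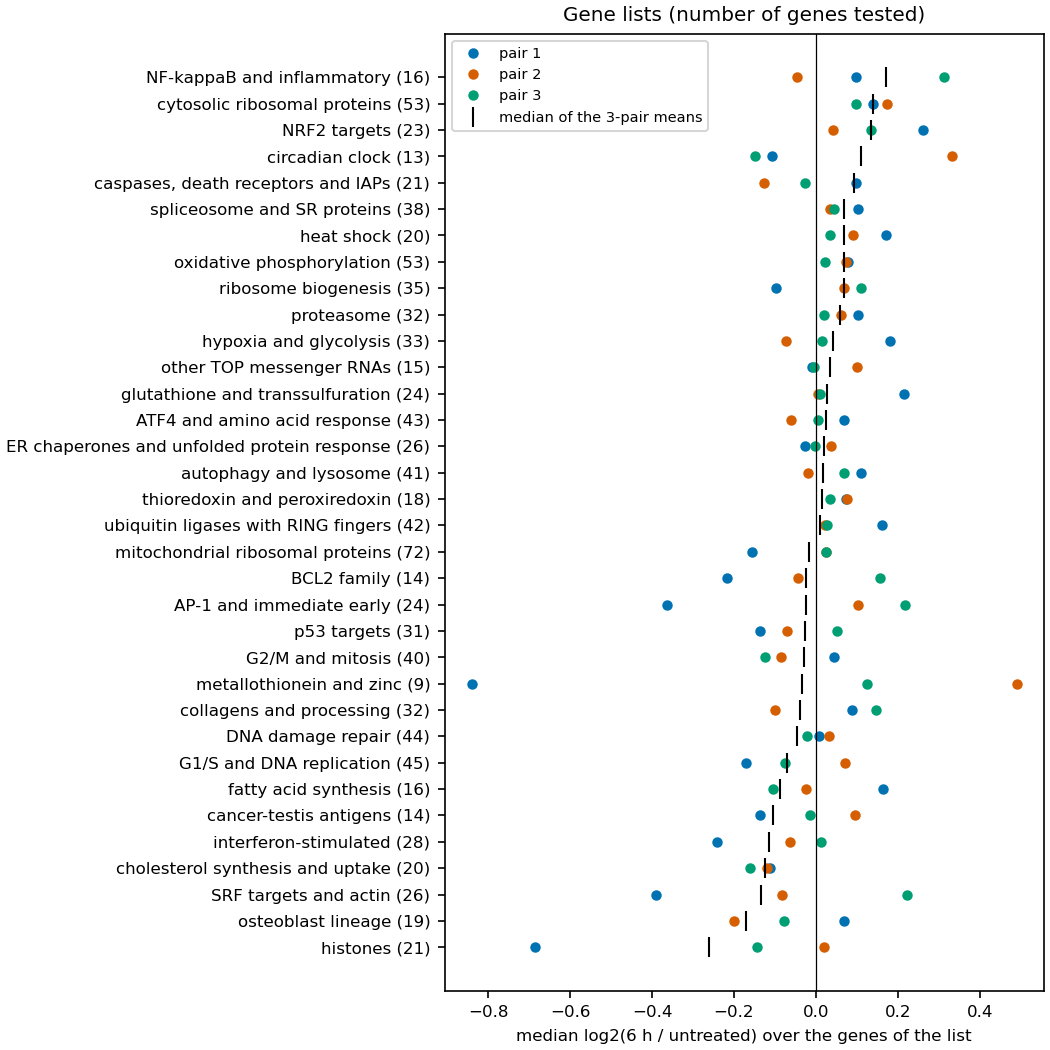
Median log2 difference of 6 h over untreated for 34 gene lists, in each pair (coloured points) and over the gene means of the 3 pairs (black bar), with the number of genes tested in brackets. The pairs fall on both sides of 0 in most lists, as for metallothioneins (-0.84, 0.49 and 0.12), and lie on 1 side in others, among them the NRF2, ribosomal protein and cholesterol lists.

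The glutathione and thioredoxin lists, which share genes with the NRF2 list (GCLC, GCLM and GSR with the first, SRXN1, TXNRD1, TXN and PRDX1 with the second), had medians close to that of all genes. The 24 genes of glutathione synthesis, use and transsulfuration had a median of 0.03, which went below 0 under some alternatives (lowest -0.02). In all pairs 6 of them were higher (25%) and 3 lower (12.5%). GPX4, the peroxidase that protects membrane lipids, stood at 968, 588.5 and 1093 against 1138, 766 and 1187 (0.24 ± 0.14, SE), and ETHE1, a mitochondrial sulfur dioxygenase, at 172, 214 and 164 against 95.3, 155 and 156. The 18 thioredoxin and peroxiredoxin genes had a median of 0.02, with 4 higher in all pairs, SRXN1 and TXNRD1 among them, and 1 lower.

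More heat shock genes were higher than lower in all pairs, by small amounts. Of 20 tested, 6 were higher (30% against 13.6% of all genes) and 1 lower in all pairs, and the median was 0.07 (pairs 0.17, 0.09 and 0.03), or 0.03 with quantile normalization. HSPH1, a nucleotide exchange factor for HSP70, stood at 1302, 1331 and 1722 untreated and 2200, 1831 and 1759 at 6 h, without overlap (0.42 ± 0.16, SE, n = 3 pairs), and the pair 3 difference was 0.03. HSP90AA1, the inducible cytosolic HSP90, differed by 0.25, 0.35 and 0.04 and the polyubiquitin gene UBB by 0.38, 0.36 and 0.04. Both were very bright, with mean untreated signals of 6023 and 5021, and the part of signal level in these differences was not tested. DNAJB1, a co-chaperone that responds early to heat shock factor, differed by 0.11, 0.14 and 0.39.

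The 26 endoplasmic reticulum chaperone and unfolded protein response genes had 4 higher and 4 lower in all pairs and a median of 0.02, which turned below 0 under some alternatives (lowest -0.06). HSPA5, the main chaperone of that compartment, stood at 2546, 2525 and 3582 against 3174, 2667 and 4231 (0.21 ± 0.10, SE), and a second probe set was also higher in all pairs. CANX, calnexin, stood at 1324, 1290 and 1516 against 1549, 1640 and 1758, with no overlap, but 0 of its 3 other tested probe sets were higher in all pairs. XBP1, a transcription factor of this response, lay on the other side without overlap, at 587, 499 and 516 against 404, 408 and 441 (-0.35 ± 0.17, SE).

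The ATF4 and amino acid response list showed no common direction. Of 43 genes, 4 were higher and 1 lower in all pairs, fewer in share (9.3% and 2.33%) than over all genes, with a median of 0.03. DDIT3, a transcription factor of stress-induced death, stood at 64.7, 62.4 and 113 untreated and 94.9, 128 and 111 at 6 h. ATF4 itself differed by 0.07, 0.23 and 0.06. By their brightest probe sets ATF3, TRIB3 and ASNS were higher in pair 2 (0.99, 1.17 and 0.53) and within 0.12 of 0 in the other pairs. Other ATF3 sets above the filter differed by 0.31, 0.68 and 0.65 and by -0.07, 0.22 and 0.05. The other TRIB3 set differed by 0.32, 1.29 and -0.43. CHAC1, a glutathione-degrading enzyme, differed by 0.20, -0.96 and 1.93. STC2, a secreted glycoprotein, stood at 112, 157 and 96.1 untreated and 706, 169 and 109 at 6 h, so that its difference of 0.98 ± 0.47 (SE) came mainly from 6 h replicate 1.

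Genes known as p53 targets had 3 higher and 3 lower in all pairs among 31 tested, with a median of -0.03 that changed sign under some alternatives. CDKN1A, the cell cycle inhibitor p21, stood at 136, 142 and 115 untreated and 283.5, 113 and 153 at 6 h, higher in pairs 1 and 3 and lower in pair 2. By its brightest probe set MDM2, the ubiquitin ligase for p53, differed by -0.70, -0.24 and 0.03. Its other sets above the filter had mean differences of -0.28, -0.33, -0.48, -0.34 and 0.004, and all but the last were lower in all 3 pairs. By their brightest sets the pore-forming BAX differed by 0.02, -0.07 and 0.03, and PMAIP1, a BH3-only death gene, by -0.82, 1.20 and 0.20. TP53I3, a quinone oxidoreductase, was lower in all pairs (-0.26, -0.13 and -0.06), with a mean of -0.15 ± 0.22 (SE). GDF15 was under the filter.

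Death and survival genes were split. Of 21 caspase, death receptor and inhibitor-of-apoptosis genes 3 were higher and 4 lower in all pairs. XIAP, a caspase inhibitor, was evenly lower, at 873, 528 and 780 untreated against 670, 397 and 617 (-0.38 ± 0.15, SE, n = 3 pairs), but of 6 other XIAP probe sets above the filter 0 were lower in all pairs. APAF1, the apoptosome scaffold, differed by -0.28, -0.28 and -0.65, and BIRC6, a large inhibitor-of-apoptosis ubiquitin ligase, by 0.06, 0.79 and 0.22. Of 14 BCL2 family genes 2 were higher and 1 lower in all pairs. BCL2L2, an antiapoptotic member, stood at 162, 136 and 151 against 191, 196.5 and 180 with no overlap, and its other tested probe set was not higher in all pairs.

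Early response and inflammatory genes followed no single direction. The 24 AP-1 and immediate early genes had a median of -0.02 that changed sign under some alternatives (pairs -0.36, 0.10 and 0.22), with 2 higher and 2 lower in all pairs. By its brightest probe set EGR1, an early growth response factor, stood at 294, 221 and 335 untreated and 70.6, 213 and 384 at 6 h. The difference by that set lay mainly in pair 1. Other EGR1 sets above the filter differed by -1.76, 0.31 and -0.59 and by -2.10, 0.04 and 1.07. FOSL2, a FOS relative, stood at 503, 547 and 565 against 313.5, 370 and 500, without overlap (-0.47 ± 0.18, SE). PHLDA1, an early gene with a pleckstrin domain, stood at 140, 103 and 99.1 against 200, 251.5 and 122 (0.70 ± 0.28, SE), and FOS was under the filter. Of 16 NF-kappaB genes 4 were higher in all pairs (25% against 13.6% of all genes), ICAM1 and IL6 among them. Lower in all pairs were 2 (12.5% against 10.4%), SOD2 among them, and the list median of 0.17 changed sign under some alternatives. Of 28 interferon-stimulated genes 3 were higher and 4 lower in all pairs (median -0.12), with IFIT1 at 136, 84.2 and 121 against 106, 25.4 and 104.5.

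Cholesterol genes were slightly lower on balance. Of 20 tested, 15 had a mean difference below 0, 5 were lower in all pairs (25% against 10.4% of all genes) and 1 was higher, with a median of -0.12 and pair medians of -0.11, -0.12 and -0.16. The median stayed below 0 under every alternative run. IDI1, which isomerises the isoprenoid building block, stood at 607, 449 and 743 untreated and 388, 399 and 583 at 6 h (-0.39 ± 0.18, SE, n = 3 pairs). MSMO1, a sterol demethylase, stood at 952, 652 and 885 against 817, 591 and 587, and SC5D and DHCR7, late enzymes of the pathway, differed by -0.31 and -0.27. LSS, the lanosterol synthase, was on the other side at 0.38. Of 16 fatty acid genes 0 were higher and 3 lower in all pairs, among them ACSL1 (-0.31 ± 0.19, SE), with a list median that changed sign under some alternatives.

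Metallothioneins, which bind zinc and copper and respond to metal and oxidant load, had the pair medians that lay farthest apart (-0.84, 0.49 and 0.12). MT2A stood at 1667, 583 and 1295 untreated and 932, 1022 and 1921 at 6 h, lower in pair 1 and higher in pairs 2 and 3. MT1E differed by -2.07, 0.69 and 0.31 and MT1X by -1.25, 0.49 and 0.12. Probe sets of this family can share sequence, so single members are uncertain. SLC30A1, the plasma membrane zinc exporter induced through MTF1, was higher in all pairs, at 436, 203 and 421 against 578.5, 277 and 537 (0.40 ± 0.18, SE), though not by its other tested probe set, while MTF1 itself was lower in all 3 (-0.31 ± 0.26).

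Among cell cycle genes, the mitotic list had no member higher in all pairs. Of 40 G2/M and mitosis genes 0 were higher and 8 were lower in all pairs (20% against 10.4% of all genes), with a median of -0.03 that changed sign under some alternatives. UBE2C, a ubiquitin-conjugating enzyme of the anaphase-promoting complex, stood at 1690, 1800 and 2330 untreated and 1302, 1368 and 2222 at 6 h (-0.28 ± 0.12, SE). AURKB, the chromosome passenger kinase, stood at 271, 402 and 350 against 196, 179.5 and 336, and KIF20A, a kinesin of cytokinesis, at 413, 580 and 686 against 283, 456.5 and 626. The differences of these genes in pair 3 were -0.07, -0.06 and -0.13. Of 45 G1/S and replication genes 4 were higher (8.89%) and 7 lower (15.6%) in all pairs (median -0.07), with the sliding clamp PCNA at 2088, 1794 and 2258 against 1824, 1481 and 2016.

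Of 21 tested histone genes 15 were below 0 and 5 were lower in all pairs (23.8% against 10.4% of all genes), with a median of -0.26. This rested largely on pair 1, whose median was -0.68 against 0.02 in pair 2 and -0.14 in pair 3. H2AC6 stood at 757, 371.5 and 964 untreated and 404, 317 and 691 at 6 h, and H2BC5 at 903, 638 and 1238 against 562, 542 and 1080. Histone probe sets can cross-hybridise within the family, so these values may pool several genes.

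Of the 34 lists, that of the cytosolic ribosomal proteins had the largest share of genes on 1 side in all pairs. Of 53 tested, 45 were above 0 and 34 were higher in all 3 pairs (64.2% against 13.6% of all genes), 2 were lower in all pairs, and the median was 0.14 with pair medians of 0.14, 0.17 and 0.10. RPS23 stood at 6402, 6348 and 8569 untreated and 7580, 7788 and 9621 at 6 h (0.24 ± 0.07, SE, n = 3 pairs). RPS24 stood at 4139, 4680 and 6212 against 5023, 5573 and 6988, and RPL35A at 4409, 2896 and 5335 against 5638, 3296 and 5977. Each was higher in every pair and overlapped between groups. For RPS23 and RPS24 the overlap arose because replicate 3 was brightest in both conditions, and for RPL35A because replicate 2 was dimmest in both. None of their other tested probe sets (1 for RPS23, 1 for RPS24 and 3 for RPL35A) was higher in all pairs, and ribosomal protein probe sets can share sequence with pseudogenes. The shift in the list median was not seen with quantile normalization, which gives all arrays 1 distribution of signals. The list median was then 0.003, with 12 of 53 genes higher in all pairs, where 12.3% of all genes were. By construction, that step removes most of any shift that the brightest genes share. With arrays centred on their median, the list median was 0.13, with 44 of the 53 above 0 and 27 higher in all pairs.

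These genes are among the brightest on the arrays, 50 of the 53 in the top 10%. Other genes as bright as the brighter part of the list had similar differences, and its dimmer part was not compared with genes of like signal. Of 23 other genes brighter than the median ribosomal gene, 15 were higher in all 3 pairs (65.2%), with a median of 0.12, while of the other 1157 genes in the top 10% by signal 13.9% were. This split by signal was made after the values were seen. ACTB, cytoskeletal actin, stood at 5650, 6331 and 8707 untreated and 7119, 7208 and 10368 at 6 h, and GAPDH, a glycolytic enzyme, at 4693, 4812 and 7050 against 5443, 5473 and 7410. With quantile normalization their differences shrank from 0.26 and 0.16 to 0.08 and 0.03. The highest signal on an array was also higher at 6 h in each pair, at 8358 against 7166, 8162 against 6728 and 10402 against 9531. The 3′ to 5′ signal ratio of ACTB, a sign of RNA integrity, was 1.34, 1.12 and 1.32 untreated and 1.73, 1.28 and 1.38 at 6 h, and that of GAPDH 0.927, 0.934 and 0.947 against 0.978, 1.01 and 0.950, higher at 6 h in every pair. The part of these array properties in the ribosomal result was not tested.

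**Figure D5:**
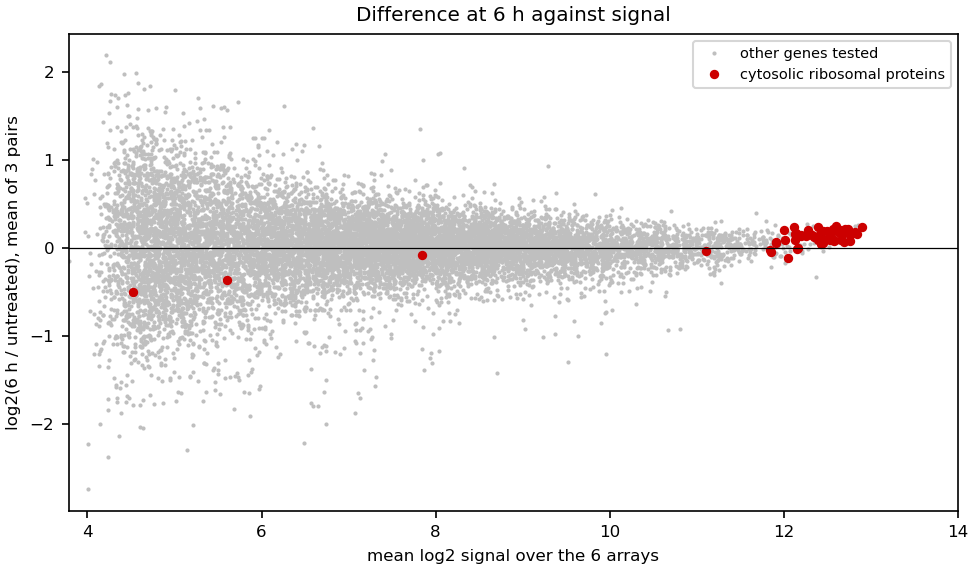
Mean log2 difference of 6 h over untreated (vertical axis) against mean log2 signal over the 6 arrays (horizontal axis), with cytosolic ribosomal protein genes in red and all other tested genes in grey. The red points lie at the bright end, 45 of 53 above 0, and the spread of grey points narrows as signal grows.

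Messenger RNAs of ribosomal proteins usually begin with a C followed by a run of pyrimidines, the TOP start that lets growth signals control their translation together. A C followed by at least 4 pyrimidines stood at the annotated start of 35 of the 47 tested ribosomal genes with a promoter window (74.5%), against 7.07% of all tested genes with one, and of 21 of the 29 that were higher in all pairs (72.4%). The starts of the 3 named genes are shown from 10 bases before the start, with the pyrimidine run in capitals (RefSeq, GRCh38.p14). They lie at chr10:78033853-78033882 on the plus strand, chr5:82278335-82278364 on the minus strand and chr3:197950180-197950209 on the plus strand.
RPS24: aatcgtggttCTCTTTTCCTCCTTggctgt
RPS23: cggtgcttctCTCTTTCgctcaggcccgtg
RPL35A: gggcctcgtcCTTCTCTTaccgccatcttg

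Other messenger RNAs known for a TOP start did not share the evenness. Of 15 tested, from a list drawn up after the values were seen, 4 were higher and 3 lower in all pairs, with a median of 0.03 that was -0.01 with quantile normalization. Elongation factor EEF1A1 stood at 6153, 6230 and 8765 against 7187, 7294 and 8991, and IMPDH2, a nucleotide synthesis enzyme, at 1222, 1349 and 1631 against 753, 1194 and 1449. Mitochondrial ribosomal proteins had 8 higher and 7 lower of 72, with a median of -0.02 that changed sign under some alternatives. MRPS18B, of the small mitochondrial subunit, was lower without overlap, at 1267, 748 and 962 against 688, 653 and 694, and its other tested probe set was not lower in all pairs.

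Housekeeping lists lay close to all genes. Among 53 oxidative phosphorylation genes 11 were higher and 4 lower in all pairs (median 0.07), with the complex I subunit NDUFA6 at 2032, 1183 and 1982 against 2298, 1567 and 2201. Among 32 proteasome genes 4 were higher and 0 lower (median 0.06), and among 38 spliceosome genes 7 and 4 (median 0.07). Of 41 autophagy and lysosome genes 7 were higher and 2 lower. The autophagy initiator ATG13 stood at 86.3, 107 and 96.8 against 119, 178 and 129, without overlap (0.54 ± 0.25, SE), and MAN2B1, a lysosomal mannosidase, at 25.3, 11.03 and 51.9 against 68.7, 73.2 and 59.7.

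Lineage and matrix genes differed between pairs. Of 19 osteoblast lineage genes 3 were higher (15.8% against 13.6% of all genes) and 6 lower (31.6% against 10.4%) in all pairs. The list median was -0.17 and stayed below 0 under every alternative run, with pair medians of 0.07, -0.20 and -0.08. TNFRSF11B, osteoprotegerin, a decoy receptor that restrains osteoclasts, stood at 183, 107 and 122 against 70.3, 80.8 and 98.0, without overlap (-0.70 ± 0.31, SE) but not by its other tested probe set, and DLX3, a homeobox factor, at 38.1, 15.03 and 22.4 against 115.5, 24.7 and 31.5. Of 32 collagen genes 6 were higher and 3 lower, and COL18A1, a basement membrane collagen, stood at 63.0, 64.5 and 63.1 against 91.8, 81.9 and 88.1, without overlap. Of 26 SRF target and actin genes 2 were higher and 0 lower, with pair medians of -0.39, -0.08 and 0.22. Among 44 DNA repair genes 2 were higher and 6 lower, and among 42 RING-type ubiquitin ligases, the class of RNF25, 7 were higher and 2 lower.

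Of 33 hypoxia and glycolysis genes 4 were higher and 3 lower in all pairs, with aldolase ALDOA lower by all 3 of its probe sets (brightest -0.14 ± 0.11, SE) and VEGFA at -0.55, -0.25 and 0.15. Of 35 ribosome biogenesis genes 4 were higher and 2 lower, with the nucleolar chaperone NPM1 at 4445, 4476 and 6383 against 5171, 5780 and 6801. Of 14 cancer-testis antigens 1 was higher and 2 lower, with MAGEC2 at 37.3, 114 and 33.0 against 28.8, 25.7 and 21.3. Of 13 circadian clock genes 1 was higher and 1, the nuclear receptor RORA, lower (-0.76 ± 0.38, SE).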

How the data were processed

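RNA from 8 Saos-2 samples was hybridised to Affymetrix arrays after biotin labelling, per the labels' protocols. The authors' deposited table gives 1 linear intensity per probe set and array. The submitters' processing notes name MAS5, which combines a probe set's probes into a signal and scales each array; its version and settings are not given in the sources used here. Each array had a 2% trimmed mean of 100.01. Precision is limited by how few arrays there are.

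Of 54675 probe sets 62 were controls. Platform annotation gave 1 gene symbol to 41091, several to 1801 and none to 11721. A gene was read from its brightest probe set (19775 genes), signals under the 10th percentile (2.385) were raised to it, and genes with a mean log2 signal over the 8 arrays above 4.216 were tested. The floor shrinks the fold changes of dim genes.

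Each gene was fitted with limma 3.58.1 under R 4.3.3, using lmFit and then eBayes with a variance trend, on the 6 arrays, with replicate number as a block, two-sided, with Benjamini-Hochberg adjustment at 0.05. Pairing followed the replicate numbers in the labels. Across genes, deviations from the group mean correlated at 0.163, 0.585 and 0.637 for same-numbered arrays, against -0.576 to 0.086 for the others. Deviations within a group cancel by construction, which lowers the correlations of differently numbered arrays. The value of 0.163, for replicate 1, was close to the highest of those. Scripts were tested on simulated data.

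Named genes were the 10 with the largest weakest-pair difference in each direction, up to 4 members of each list, the same way in all pairs, a fixed set of stress genes, and those marked as chosen after values were seen. Members of lists given only to show disagreement were also chosen so. The comparison and the lists were chosen with earlier results of these data known. Alternatives were normalization, floor, pseudocount, filter, probe-set rule, variance model, array weights, block and leaving out each pair.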

Additional observations from a re-analysis of the deposited data

How the results depend on the processing

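The counts of genes past the test, higher or lower, were 0 under every alternative run, with smallest adjusted p-values from 0.177 to 0.9999 with limma; without the replicate block 45 genes, and with it and all 8 arrays 493, had an unadjusted p under 0.05, against 301. Genes higher by 1.5-fold in all pairs numbered 48, and 5 with a pseudocount of 32, 275 without a filter, 3 with a filter at the 75th percentile and 140 with every probe set on its own. The lower genes numbered 41, and in the same order 1, 215, 0 and 111. Leaving out each replicate, which leaves 2 pairs to agree, gave 160 to 471 higher and 151 to 343 lower genes, most without replicate 3. Both counts stayed within 1.5 times under quantile normalization, centring and the other alternatives run. With 2 residual degrees of freedom, signal near background and few arrays limit what could be called.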
